A study of Mus musculus with 12 samples.

Results

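The response to culture density was compared between an osteocyte line and an osteoblast line of mouse, with all 12 arrays of the series, 3 for each of 4 groups. The osteoblast line 2T3 came from a transgenic mouse in which the BMP-2 promoter drives SV-40 T antigen. The osteocyte line MLO-Y4 came from one in which the osteocalcin promoter drives T antigen, so every group carried an immortalising oncogene, and each cell type was represented by 1 line. The 2T3 arrays carry the names C0 or low. The MLO-Y4 arrays are named high or low. As the submitters describe them, the 2T3 arrays address sparse against confluent osteoblasts and the MLO-Y4 arrays address osteocytes with and without gap junctions. C0 was read as the confluent group, and high as the group with gap junctions, only because the other group of each line is called low. Total RNA was hybridised to one-colour spotted arrays of 5030 spots. Within a group the arrays are numbered 1 to 3, and nothing says that a number is a separate culture. The p-values therefore rest on a spread between arrays that may be technical.

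For each spot a density difference was formed in each line, high minus low in MLO-Y4 and C0 minus low in 2T3, and then the difference between the lines, MLO-Y4 minus 2T3. All are on the log2 scale of intensities that were scaled to equal array medians and floored at 3.96 scaled units. A positive difference between the lines therefore means that dense culture went with a higher level in MLO-Y4 than in 2T3, relative to sparse culture. No array is shared by the density differences of the lines. A spot was counted as detected on an array when its value was above the size of that array's lowest value, and 1253 spots were detected on all 12 arrays.

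Cells that touch their neighbours sense it through cadherins and gap junctions, and through the tension of the actin cytoskeleton. In sparse, well-spread cells the coactivators YAP and MRTF enter the nucleus and switch on genes such as Ccn1, Ccn2 and smooth muscle type actin genes, and in confluent cells they are held back and proliferation slows. Osteoblasts lay down and mineralise matrix as they become confluent. Osteocytes are embedded in that matrix and communicate through long processes joined by gap junctions. Many interferon-induced genes carry in their promoter a sequence called the interferon-stimulated response element (ISRE), through which interferon switches them on.

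No gene passed the adjusted threshold in any of these comparisons. By their values alone, without a test passed, the gene lists gave these patterns. In MLO-Y4, interferon-induced genes lay higher in dense culture, 27 of 33 measured, with a median of 0.86 on the log2 scale, against a median of -0.01 for the same genes in 2T3. Of these 33 genes, 23 were detected on all arrays of at least 1 group. Many lay at the floor in 2T3, which holds their density difference there near 0. Over all named genes 2018 of 4605 lay higher in dense MLO-Y4 and 2112 in 2T3 C0. In 2T3, genes of the circadian clock lay higher in C0, 10 of 12 measured, with a median of 0.54, against -0.30 in MLO-Y4. Genes that respond to YAP and to the actin-sensing factor SRF lay lower in dense culture in both lines, 18 of 21 in MLO-Y4 and 17 of 21 in 2T3. Ribosomal protein genes did so too, 29 and 28 of 33, where 2540 and 2406 of all 4605 named genes lay lower. Without MLO-Y4 low replicate 1 the MLO-Y4 medians of the YAP and SRF and ribosomal lists were 0.16 and 0.23. With all 4 arrays numbered 1 left out they were -0.35 and -0.37, so the sign depended on which arrays were left out. Between same-numbered MLO-Y4 arrays, dense minus sparse, the YAP and SRF medians were -0.46, -0.46 and -0.32 for numbers 1, 2 and 3. The ribosomal medians were -0.57, -0.42 and -0.14. No member of these lists passed the test, so the counts describe values only.

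The test of the difference between the lines called 0 of 5030 spots at adjusted p 0.05 (limma with Benjamini-Hochberg adjustment, 0%), and the smallest adjusted p was 1. The same held for the density difference in MLO-Y4 (0%) and in 2T3 (0%). At an unadjusted p under 0.05, 104 spots were called for the difference between the lines (2.07%), 37 positive (0.736%) and 67 negative (1.33%). For the density difference, 116 were called in MLO-Y4 (2.31%), 41 higher (0.815%) and 75 lower (1.49%) in dense culture, or 179 in all with the number as a block in that line. In 2T3 141 were called (2.8%), 76 higher (1.51%) and 65 lower (1.29%). By the nominal rate 251.5 would be called in each, so the spots below are those with the smallest p-values in a table that holds fewer small ones than that rate. The precision was low. The median SE was 1.08 for the difference between the lines and 0.76 for each density difference, and the median half-width of the 95% interval was 2.37 and 1.68. A density difference that is not separated from 0 here may still be several-fold.

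Arrays differed widely in brightness, with median intensities from 4 to 55 and between 37.9% and 74.8% of spots detected. The MLO-Y4 low and high arrays numbered 1 were the dimmest in detection, at 38.1% and 37.9%, and stood apart from the other MLO-Y4 arrays. The 2T3 low array numbered 3 had the lowest total, 212491. Over all spots the median difference between the lines was -0.03, and it moved to 0.12 when arrays were scaled on detected spots, so medians as small as these have no settled direction. Bone cell markers gave a mixed account of the lines. Among osteocyte markers Ackr3 had geometric means of 689 and 750 in sparse and dense MLO-Y4 against 26.2 and 16.7 in low and C0 2T3. Sema3a lay the other way, at 97.5 and 129 against 208 and 191. The osteoblast gene Bglap had 205 and 124 in low and C0 2T3 and 33.1 and 82.0 in sparse and dense MLO-Y4. Its arrays overlapped between the lines. The osteocyte marker Phex, a mineralisation regulator, was detected on no array. Pdpn, which drives the growth of osteocyte processes, was detected on all 12 and ranged from 304 to 4499 scaled units in MLO-Y4 and from 60.1 to 256 in 2T3. The osteoblast enzyme gene Alpl was detected on all 12 as well, and lay higher in the osteocyte line, with geometric means of 328 and 289 in sparse and dense MLO-Y4 against 39.5 and 46.1 in low and C0 2T3, which goes against its role as an osteoblast marker.

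The measured density differences of the lines were weakly correlated. Across the 1253 spots detected on all arrays their correlation was 0.14, which describes spots of the same 12 arrays and is not a test, and 53.4% of these spots had the same sign in both lines. Over all 5030 spots the correlation was 0.04 and the same-sign share 49.3%. Without MLO-Y4 high replicate 1 the correlation over detected spots was -0.04, and without MLO-Y4 low replicate 3 it was 0.04. Over all spots the median size of a density difference was 0.40 in MLO-Y4 and 0.48 in 2T3, below the median SE of 0.76. A low correlation therefore does not show that the lines respond differently. At unadjusted p under 0.05, 1 spot was called in both lines with the same sign and 2 spots with opposite signs. By the same unadjusted threshold, 30 spots were called in MLO-Y4 together with the difference between the lines, 42 in 2T3 together with the difference, and 30 in the difference alone.

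**Figure D1:**
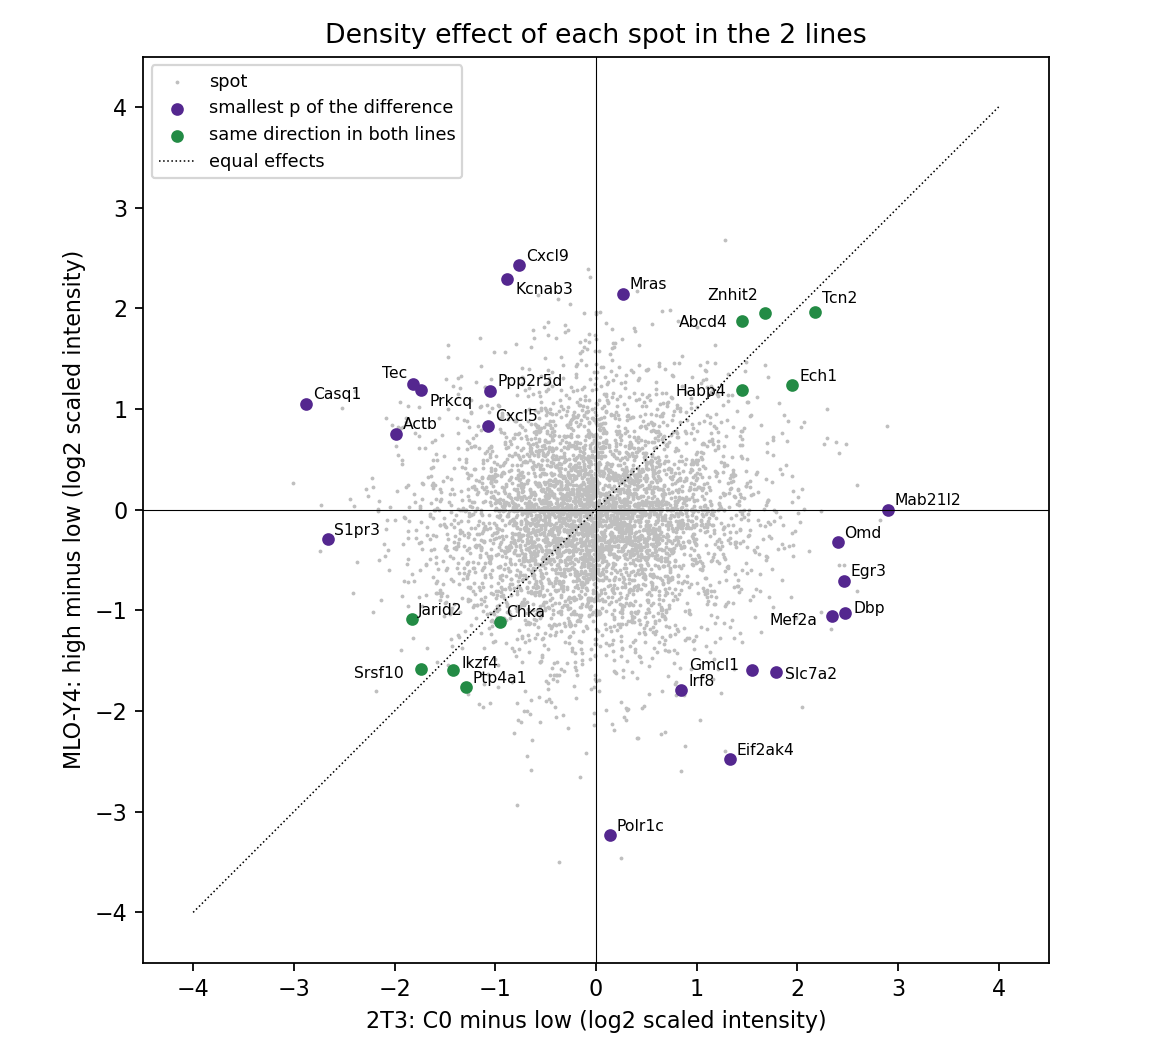
Density difference of each of the 5030 spots in 2T3 (horizontal axis, C0 minus low, log2 scaled intensity) and in MLO-Y4 (vertical axis, high minus low). Purple points are the 20 genes named for the smallest p of the difference between the lines and green points the 10 named for both lines in the same direction. The cloud is round, with a correlation of 0.04, and the named genes lie at its edge.

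Opposite density differences were looked for array by array. In 6 spots (0.119%) the dense and sparse arrays did not overlap in either line and the directions were opposed, and all 6 were lower in dense MLO-Y4 and higher in 2T3 C0. Non-overlap in a single line was seen for 81 spots higher (1.61%) and 113 lower (2.25%) in dense MLO-Y4, and for 183 higher (3.64%) and 174 lower (3.46%) in 2T3 C0. No spot was higher in dense MLO-Y4 and lower in 2T3 C0 without overlap. As many spots, 6 (0.119%), were apart in both lines in the same direction, so opposed spots were no more frequent than shared ones. How many would be apart in both lines if the lines were unrelated was not worked out. The 6 opposed genes were Slc7a2, Mef2a, Gmcl1, Zbtb33, Insrr and Mdm4. The last 3 fall outside the naming rule and were picked after their values were seen, and Insrr and Mdm4 were not detected on all arrays of any group.

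Slc7a2 encodes a transporter of cationic amino acids such as arginine. Its scaled intensity was 32.4, 10.5 and 7.60 in 2T3 C0 and at the floor on all 3 low arrays. In MLO-Y4 it was 14.5, 9.08 and 18.2 at low density, and 4.04, 5.19 and the floor at high density. All 3 dense 2T3 arrays thus lay above all 3 sparse ones, and the order was turned round in MLO-Y4. Genes named by p-value were picked on these same arrays, so a lack of overlap in them is not separate support. The density difference was 1.79 in 2T3, at least 1.70-fold because the low arrays were below the limit, and -1.62 in MLO-Y4. The difference between the lines was -3.41 (95% interval -5.11 to -1.70, limma, unadjusted). In MLO-Y4 the gene was detected on 1 of 6 arrays, so its values there lie near background.

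Mef2a encodes a transcription factor of the myocyte enhancer family, whose relatives act in bone cells. Dense 2T3 arrays read 60.0, 27.9 and 26.1 and sparse ones 4.37, 5.64 and 13.6. Sparse MLO-Y4 arrays read 191, 69.0 and 77.2 and dense ones 58.5, 44.1 and 43.9. The level was thus higher in C0 by 5.06-fold in 2T3 and lower in dense MLO-Y4 by 2.08-fold, again without overlap. Its difference between the lines was -3.40 (SE 0.83). Of the 6 opposite genes it was among the better measured, being detected on all 6 MLO-Y4 arrays and on 4 of 6 in 2T3.

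Gmcl1 encodes a protein of the germ cell-less family, known from the nuclear envelope. It read 69.5, 24.2 and 14.5 in 2T3 C0 against 6.39, 11.3 and 13.6 at low density. In MLO-Y4 it read 30.9, 7.27 and 7.57 at low density and lay at the floor on all 3 dense arrays, with none of these 6 arrays above its limit. Between the lines the difference was -3.14 (SE 0.99).

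Eif2ak4 encodes GCN2, the kinase that slows translation when amino acids run short. Its levels were 29.2, 16.2 and 25.8 in 2T3 C0 and 20.5, 8.14 and 4.54 at low density, which overlap. In MLO-Y4 sparse arrays read 79.9, 47.2 and 27.3 and dense ones 10.1, 9.73 and 6.06, with no overlap. The difference between the lines was -3.81 (95% interval -5.74 to -1.89), with density differences of -2.48 in MLO-Y4 and 1.33 in 2T3. Nrp1, which encodes a co-receptor for semaphorins and VEGF, and Ugt8a, a galactosyltransferase gene of galactolipid synthesis, were named for the same combination of signs. They had differences between the lines of -2.51 and -2.77.

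The 5 genes named for the reverse combination, higher in dense MLO-Y4 and lower in 2T3 C0, were dim, and none was detected on every array. Kcnab3, which encodes a beta subunit of voltage-gated potassium channels, had the smallest unadjusted p of all for the difference between the lines, 0.000599, with a difference of 3.18 (SE 0.66). It read 5.45, 0 and 1.51 in sparse MLO-Y4 and 26.2, 14.9 and 25.7 in dense MLO-Y4. In 2T3 it read 39.0, 52.6 and 59.0 at low density and 47.4, 20.6 and 19.8 in C0. The MLO-Y4 groups did not overlap, the 2T3 groups did, and dense MLO-Y4 is given as at least 1.42-fold above sparse because the sparse arrays were below the limit. Prkcq, which encodes protein kinase C theta, was at 2.93 between the lines, Ppp2r5d, a regulatory subunit gene of the phosphatase PP2A, at 2.23, Fcer2a, the low-affinity IgE receptor gene, at 2.98 and the kinase gene Map3k8 at 2.65.

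Actin itself was measured on 3 spots. On 1 of them Actb, the beta-actin gene, read 2318, 1214 and 2906 in 2T3 C0 and 3107, 16629 and 9870 at low density. In MLO-Y4 the same spot read 7342, 6677 and 10414 in dense and 2754, 5618 and 6894 in sparse arrays. It was 3.97-fold lower in C0 without overlap, by 1.99 on the log2 scale, and 1.69-fold higher in dense MLO-Y4 with overlap, for a difference between the lines of 2.74 (SE 0.92). The other 2 spots had differences between the lines of 1.61 (SE 1.21) and 1.57 (SE 1.29). All 3 spots put Actb lower in C0, at -1.99, -1.61 and -1.91, while in MLO-Y4 they gave 0.75, -0.01 and -0.35. The spots share the sequence they were made from and the arrays, and are not replicates of the condition.

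**Figure D2:**
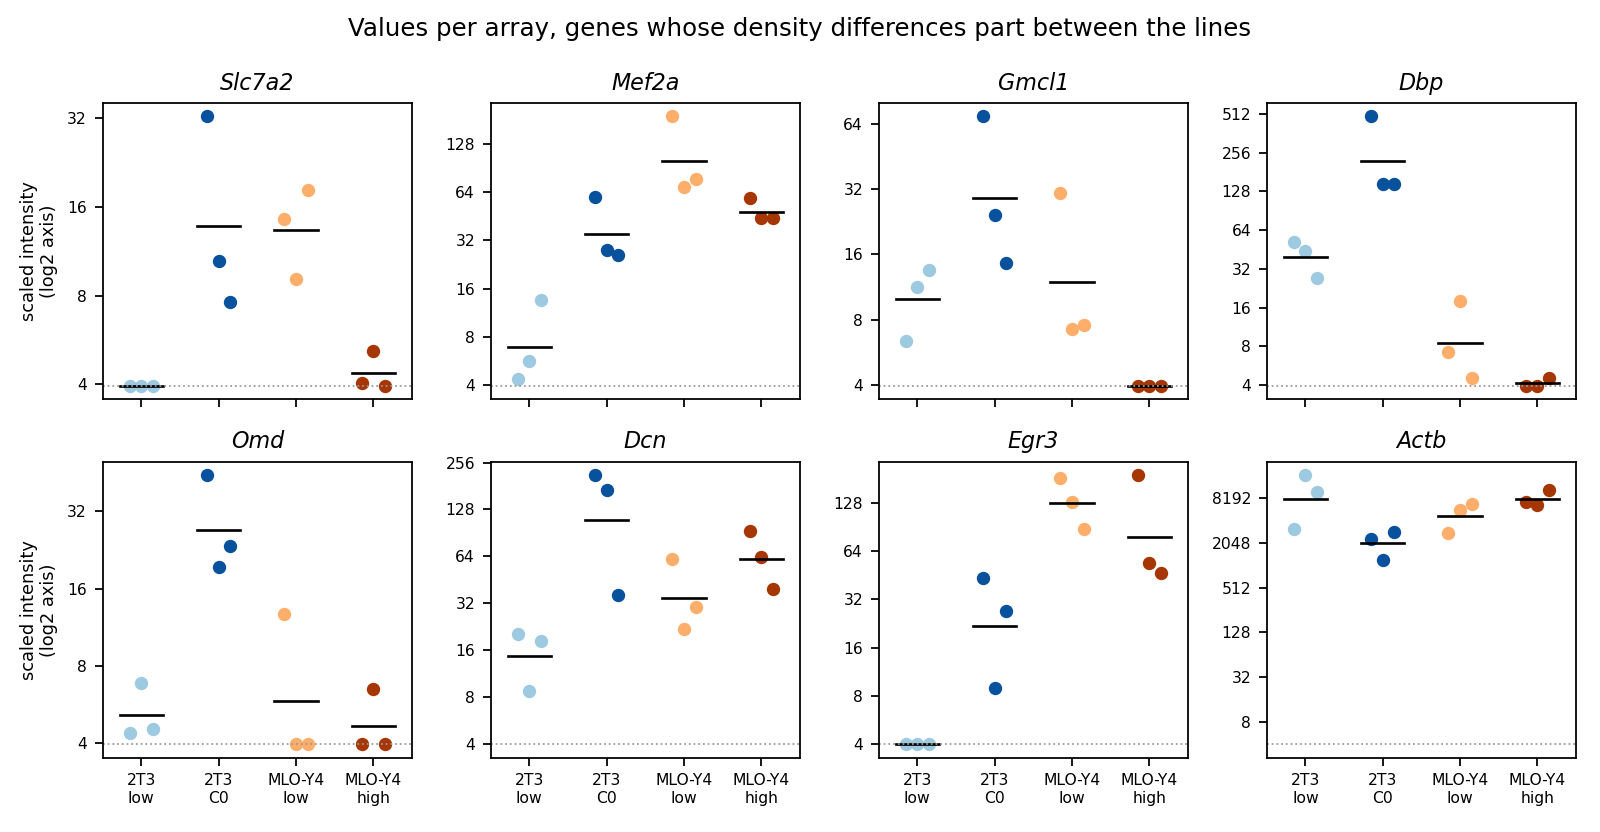
Scaled intensity (log2 axis) on each array of 8 genes whose density difference parted between the lines. Each point is 1 array, the 3 points of a group are numbers 1 to 3 from left to right, bars are geometric means, and the dotted line is the floor of 3.96 scaled units, below which values have no order. For Slc7a2, Mef2a and Gmcl1 the dense and sparse arrays do not overlap in either line and change order between the lines.

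Several named genes had density groups that did not overlap in 2T3. The matrix gene Omd encodes osteomodulin, a leucine-rich proteoglycan of mineralised tissue that osteoblasts make as they mature. Omd read 44.2, 19.4 and 23.5 in 2T3 C0 and 4.37, 6.89 and 4.54 at low density, with no overlap, a density difference of 2.40 (SE 0.56). In MLO-Y4 the density difference was -0.32 and the gene was detected on none of the 6 arrays, so the line gives only a bound. Omd differed by -2.72 between the lines (95% interval -4.47 to -0.98). Decorin, another small proteoglycan, is encoded by Dcn and was detected on all 12 arrays. It read 212, 171 and 36.0 in C0, and 20.2, 8.77 and 18.2 at low density in 2T3. That is 7.41-fold higher in C0, without overlap. In MLO-Y4 it read 92.9, 62.9 and 39.4 when dense and 61.8, 21.8 and 30.3 when sparse, a density difference of 0.83 with overlap. The sign was thus shared, and the difference between the lines was -2.06 (SE 1.02).

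Dbp encodes a clock-output transcription factor. Its 2T3 levels were 490, 147 and 147 in C0 against 52.2, 43.9 and 27.3 at low density, 5.54-fold apart with no overlap. In MLO-Y4 it was detected on 1 of 6 arrays and read 7.27, 18.2 and 4.54 when sparse, with a dense array at 4.54 and the other two at the floor. Dbp differed by -3.49 between the lines (SE 0.89). Egr3, an immediate early transcription factor gene, read 43.4, 8.88 and 27.1 in C0 and was at the floor on all 3 low 2T3 arrays, at least 2.70-fold apart. In MLO-Y4 it was detected on all 6 arrays, at 185, 131 and 87.8 when sparse and 192, 54.5 and 46.9 when dense, which overlap. Its difference between the lines was -3.17 (SE 0.97).

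Mab21l2, which encodes a developmental regulator, read 120, 52.5 and 27.7 in C0 and 6.73, 15.7 and the floor at low density, a density difference of 2.90 (SE 0.61). It lay at the floor on all 6 MLO-Y4 arrays. Barx1, a homeobox gene, read 57.7, 31.9 and 35.7 in C0 and 11.4, 13.8 and the floor at low density (2.24, SE 0.56), and was detected on none of the MLO-Y4 arrays. Gria3, a glutamate receptor subunit gene, and Naa80, which encodes the enzyme that acetylates the amino terminus of actin, were also named for 2T3 only, at least 2.34-fold and at least 3.47-fold higher in C0. Mab21l2, Barx1 and Gria3 were detected on none of the MLO-Y4 arrays, so for them the absence of a density difference there cannot be told apart from the absence of a measurable level. Naa80 was detected on 4 of 6 MLO-Y4 arrays, at 32.7, 36.3 and 13.6 when sparse and 26.2, 29.8 and 16.7 when dense, which overlap, with a density difference of -0.10.

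S1pr3, which encodes a receptor for sphingosine 1-phosphate that signals to the cytoskeleton, lay lower in 2T3 C0. It read 17.4, 7.67 and 2.31 in C0 and 41.0, 48.2 and 68.1 at low density, without overlap, a density difference of -2.67 (SE 0.55). In MLO-Y4 it was detected on no array. With a floor at the 40th percentile of scaled values (10.6 scaled units), S1pr3 at -2.04 and Barx1 at 1.77 passed for 2T3 (adjusted p = 0.029 in limma). With array weights S1pr3 passed at -2.96, and an unnamed spot at 2.25 passed with it (adjusted p = 0.0295). Neither gene passed for the difference between the lines, whose smallest adjusted p over the alternatives was 0.0959. Dvl2, an intracellular carrier of Wnt signals, was detected on all 12 arrays. It read 46.6, 32.3 and 68.1 in C0 and 92.9, 99.0 and 168 at low density (-1.30, SE 0.54), with 0.41 in MLO-Y4.

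Casq1, the gene of a calcium-binding protein of muscle, had the largest positive difference between the lines among the named genes, 3.93 (SE 0.97). It read 10.3, 5.65 and 1.98 in C0 and 85.1, 26.3 and 40.9 at low density. In MLO-Y4, where 1 of 6 arrays detected it, the density difference was 1.05. The metallothionein gene Mt1, whose product binds zinc and copper, was one of the brightest genes. It read 4050, 3587 and 4247 in C0 and 1118, 1098 and 1971 at low density in 2T3 (1.56, SE 0.55). In MLO-Y4 the difference was 0.16, with 15178 to 44884 in sparse and 15962 to 48206 in dense arrays.

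Of the named genes that lay higher in dense MLO-Y4, several are described here. Cxcl9 encodes a chemokine induced by interferon gamma. Its dense arrays read 174, 75.3 and 138 and its sparse arrays 29.1, 10.9 and 36.3, which is 5.39-fold apart with no overlap. In 2T3 it was detected on 1 of 6 arrays. Between the lines Cxcl9 differed by 3.19 (95% interval 0.69 to 5.69). Cxcl5, a chemokine for neutrophils, was detected on all 12 arrays and read 8303, 4897 and 7875 in dense and 3072, 4059 and 4556 in sparse MLO-Y4, without overlap. In 2T3 it read 89.3, 164 and 254 in C0 and 233, 304 and 486 at low density, so the density difference was 0.83 in MLO-Y4 and -1.07 in 2T3. That makes 1.90 between the lines (SE 0.71).

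Cd55, which encodes a membrane protein that protects cells from complement, read 141, 20.1 and 43.9 in dense MLO-Y4 against 14.5, 15.1 and the floor in sparse MLO-Y4. It was detected on no 2T3 array, and its difference between the lines was 2.46 (SE 1.06). Ube2l6, the enzyme that attaches the ubiquitin-like protein ISG15, read 101, 41.5 and 126 in dense and 14.5, 29.1 and 27.3 in sparse MLO-Y4. These groups did not overlap, and the difference between the lines was 2.15 (SE 0.97). Mras, a Ras-related GTPase gene, was at the limit in sparse MLO-Y4 and read 22.2, 25.3 and 30.3 in dense MLO-Y4, at least 1.69-fold higher. It was well detected in 2T3 at both densities, from 60.1 to 164, and overlapped there. Its difference between the lines was 1.87 (SE 0.68).

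Genes that lay lower in dense MLO-Y4, with 2T3 density differences near 0, included growth genes. Polr1c encodes a subunit shared by RNA polymerases I and III, which make ribosomal and transfer RNA. It read 129, 45.4 and 65.1 in sparse and 16.2, 7.14 and 3.03 in dense MLO-Y4, 9.42-fold apart with no overlap. Its unadjusted p, 0.000433, was the smallest of any spot for the MLO-Y4 density difference. In 2T3 it read from 38.4 to 114 over both densities, and its difference between the lines was -3.38 (95% interval -5.40 to -1.35). Mcm4, a subunit gene of the replicative helicase, read 116, 34.5 and 40.9 in sparse and 10.1, 22.1 and 12.1 in dense MLO-Y4, 3.93-fold apart, with 0.32 in 2T3. Vps35, which encodes part of the retromer that sorts endosomal cargo, and Cops4, a subunit gene of the COP9 signalosome, were lower by 2.13 and 1.69 on the log2 scale, without overlap. Vti1b, a vesicle fusion gene, was lower by 2.06 with overlap.

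Irf8 was one of 6 genes of the interferon list that lay lower in dense MLO-Y4. It encodes an interferon regulatory factor best known from myeloid cells. It read 20.0, 16.4 and 15.1 in sparse MLO-Y4, and 7.57 and the floor on the other two arrays in dense MLO-Y4. In 2T3 it read 15.01, 16.6 and 28.1 in C0 and 16.2, 8.14 and 9.08 at low density. Between the lines Irf8 differed by -2.64 (SE 0.66), and the values were close to the limit throughout.

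**Figure D3:**
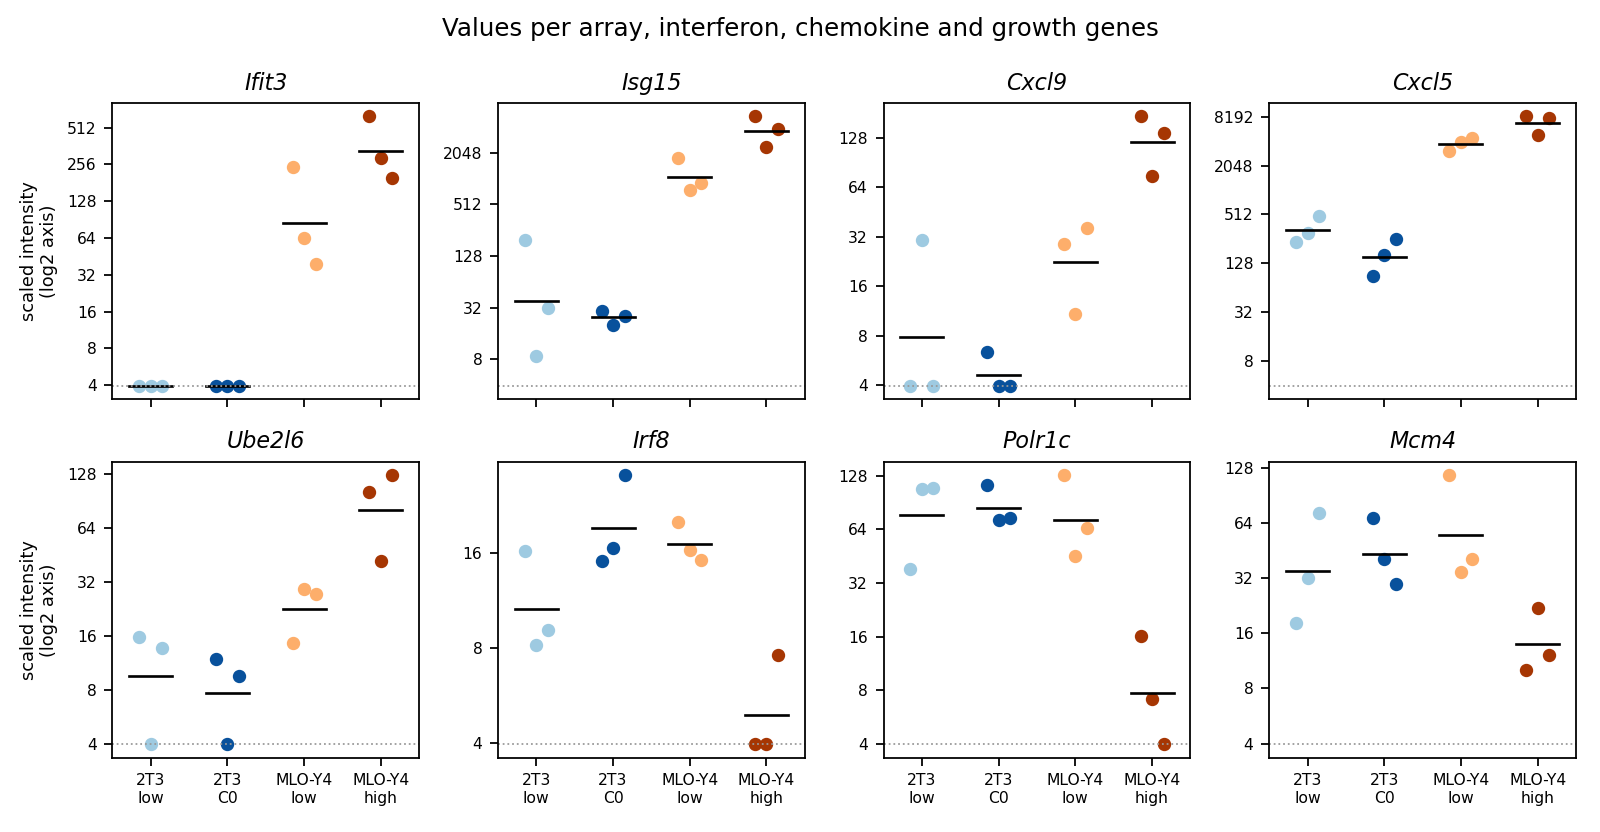
Scaled intensity (log2 axis) on each array of 8 genes of interferon, chemokine and growth functions. Each point is 1 array, the 3 points of a group are numbers 1 to 3 from left to right, bars are geometric means and the dotted line is the floor. Cxcl9, Cxcl5, Isg15 and Ube2l6 are higher on all 3 dense than on all 3 sparse MLO-Y4 arrays, and Irf8, Polr1c and Mcm4 lower.

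Spots set apart by density in both lines in the same direction were few, as were opposed ones. In 6 spots (0.119%) the dense and sparse arrays were apart in both lines in the same direction, Habp4 and Ech1 higher and Chka, Cnn1, Chrnb1 and Lats2 lower in dense culture. Cnn1, Chrnb1 and Lats2 lie outside the naming rule and were picked after their values were seen. Chka encodes choline kinase, the first enzyme of phosphatidylcholine synthesis. It read 33.2, 33.9 and 34.7 in C0 against 61.6, 48.2 and 95.4 at low density in 2T3, and 30.3, 19.5 and 15.1 in dense against 65.4, 38.2 and 36.3 in sparse MLO-Y4. It was lower by 0.95 and 1.11 on the log2 scale, and the difference between the lines was -0.16 (95% interval -1.56 to 1.24). Lats2, a kinase of the Hippo pathway that restrains YAP and is itself a YAP target, was lower by 0.67 in 2T3 and 1.41 in MLO-Y4 and was detected on all 12 arrays. Cnn1, which encodes the smooth muscle protein calponin, was lower by 2.21 and 1.02.

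Ech1, an enzyme gene of fatty acid oxidation, read 49.0, 9.69 and 13.5 in C0 and 6.39, 4.39 and the floor at low density in 2T3, at least 2.30-fold. It read 16.2, 17.5 and 12.1 in dense and 7.27, 9.08 and the floor in sparse MLO-Y4. Habp4, the gene of a hyaluronan- and RNA-binding protein, was higher by 1.46 in 2T3 and 1.19 in MLO-Y4. The remaining genes named for both lines were Abcd4, a transporter gene of vitamin B12 release from lysosomes (1.45 in 2T3 and 1.88 in MLO-Y4), Tcn2, whose product carries vitamin B12 in plasma (2.18 and 1.97), and Znhit2 (1.68 and 1.95). On the lower side were the splicing factor gene Srsf10 (-1.74 and -1.58), Ikzf4 (-1.42 and -1.59), the chromatin regulator gene Jarid2 (-1.83 and -1.09) and the phosphatase gene Ptp4a1 (-1.29 and -1.77). Chka, with an unadjusted p of 0.0307 in MLO-Y4 and 0.0576 in 2T3, missed the unadjusted threshold in 1 line.

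Over the 33 measured interferon-induced genes the median difference between the lines was 0.92, with 26 positive and 7 negative, against -0.04 over all 4605 named genes, of which 2216 were positive and 2374 negative. The order of the list medians depended on single arrays. Without the 4 arrays numbered 1 the ribosomal and the YAP and SRF lists lay above the interferon list, at 1.13 and 1.05 against 0.83, and without MLO-Y4 low replicate 1 the YAP and SRF list did, at 1.01 against 0.97. None of the 33 passed adjusted p 0.05, and 4 had an unadjusted p under 0.05 for the difference between the lines, Irf8 on the negative side and Trim21, Psmb10 and Psmb9 on the positive side. Over all 4605 named genes 95 were called at that threshold. The last 3 were not detected on all arrays of any group. Isg15 encodes a ubiquitin-like protein and was detected on all 12 arrays. It read 5422, 2403 and 3829 in dense and 1784, 758 and 908 in sparse MLO-Y4, 3.44-fold apart with no overlap. In 2T3 it read 29.2, 20.2 and 25.8 in C0 and 199, 8.77 and 31.8 at low density. Isg15 differed by 2.40 between the lines (95% interval -0.47 to 5.27).

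Ifit3, which encodes an antiviral RNA-binding family member, read 634, 287 and 200 in dense and 243, 63.6 and 39.4 in sparse MLO-Y4, which overlap. Each dense array lay above the sparse array of the same number. In 2T3 Ifit3 was at the floor on all 6 arrays. Between same-numbered MLO-Y4 arrays, 24, 25 and 24 of the 33 genes were higher in the dense one for numbers 1, 2 and 3. B2m, the light chain of class I molecules, was higher by 1.42 in dense MLO-Y4, the transcription factor genes Stat2 and Irf7 by 1.46 and 1.74, and the antigen peptide transporter gene Tap2 by 1.05. Irf3 was lower by 1.45. The list median for the difference between the lines was 0.40 without MLO-Y4 high replicate 1. It lay between 0.70 and 1.02 under the other scalings, floors, filters and blocks. In 2T3 many of these genes were at the floor at both densities, which holds their density difference near 0.

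The ISRE was searched in the 250 bases upstream of the start of each gene, as a description of the list. Promoter sequences were those of RefSeq on build GRCm38.p6, and the letters searched, on both strands, were GAAA, any 2 bases and GAAA again. Of the 33 measured genes, 26 had a promoter in the table and 9 of these held a match (34.6%), against 936 of 27025 genes in the whole table (3.46%). The list was made of genes known to be induced by interferon. Its higher share follows from that choice and says nothing about density. The 9 were B2m, Gbp2, Ifi203, Ifit1, Ifit3, Irf2, Irgm1, Isg15 and Stat2. Their density differences in MLO-Y4 were all positive, from 0.45 (Irf2) to 1.97 (Ifit3), where 27 of all 33 were positive. A match is a description of the letters and not a site shown to be bound. Parts of 4 of these promoters are shown 5′ to 3′ on the strand of the gene with the matched bases in capitals, to let the element be compared between genes that differ in level. Ifit3 is at chr19:34583335-34583454 on the plus strand, Isg15 at chr4:156200826-156200945 on the minus strand, Gbp2 at chr3:142620549-142620662 on the plus strand and B2m at chr2:122147493-122147612 on the plus strand, all GRCm38.p6 and all upstream of the gene.
Ifit3: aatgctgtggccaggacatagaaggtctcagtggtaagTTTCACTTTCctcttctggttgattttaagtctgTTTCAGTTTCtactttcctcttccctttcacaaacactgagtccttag
Isg15: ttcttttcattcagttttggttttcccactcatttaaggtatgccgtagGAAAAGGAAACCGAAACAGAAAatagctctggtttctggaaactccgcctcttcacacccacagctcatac
Gbp2: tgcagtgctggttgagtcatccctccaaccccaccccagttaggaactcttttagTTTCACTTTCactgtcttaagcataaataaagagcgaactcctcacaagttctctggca
B2m: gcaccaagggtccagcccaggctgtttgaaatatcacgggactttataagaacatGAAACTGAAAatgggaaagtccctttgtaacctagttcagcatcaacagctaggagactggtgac
Ifit3 holds 2 separate matches, Isg15 holds 3 that overlap in 1 run of capitals, and Gbp2 and B2m hold 1 each. Those of Ifit3 and Gbp2 are read on the opposite strand. The density difference in MLO-Y4 was 1.97 for Ifit3, 1.78 for Isg15, 0.86 for Gbp2 and 1.42 for B2m.

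The YAP and SRF list lay on the same side of 0 in both lines. Of 21 measured genes, 18 lay lower in dense MLO-Y4, with a median of -0.41, and 17 lay lower in 2T3 C0, with a median of -0.67. Over all named genes the medians were -0.06 and -0.03, with 2540 of 4605 lower in MLO-Y4 and 2406 in 2T3. None passed, and 2 and 3 had an unadjusted p under 0.05, against 111 and 131 of the 4605 named genes. Ccn2, which encodes the matricellular protein CTGF, read 279, 120 and 47.2 in C0 and 215, 461 and 572 at low density in 2T3. It read 1758, 781 and 345 in dense and 2418, 774 and 568 in sparse MLO-Y4, and the arrays overlapped in both lines. Its density differences were -1.72 and -0.39. The neighbouring family gene Ccn1 was at -1.81 and -0.71, the actin-bundle genes Tagln and Acta2 at -1.48 and -1.28 in 2T3 and -0.58 and -0.66 in MLO-Y4, and the tissue factor gene F3 at -0.48 and -1.39. Ankrd1, a nuclear ankyrin repeat gene, was at -1.86 and -0.72.

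Nt5e, the ecto-enzyme that makes adenosine from AMP, was the YAP target with the smallest p for the difference between the lines. It was detected on all 6 MLO-Y4 arrays, at 124, 69.0 and 37.9 when sparse and 38.4, 22.1 and 18.2 when dense, and on no 2T3 array. In MLO-Y4 the direction of this list depended on which arrays were left out. Without MLO-Y4 low replicate 1 its median there was 0.16, and without the 4 arrays numbered 1 it was -0.35. Between same-numbered MLO-Y4 arrays the median, dense minus sparse, was -0.46, -0.46 and -0.32 for numbers 1, 2 and 3. The list median for the difference between the lines was 0.51 and ranged from -0.06 to 1.01 when single arrays were left out, so a difference in size between the lines was not resolved. The letters GGAATG, the core bound by the TEAD partners of YAP, were present on either strand in 6 of 17 promoters of this list (35.3%) against 14.4% of all genes, and the CArG box of SRF in 2 of 17 against 1.62%. The list was chosen as genes that respond to YAP and SRF, so these shares say nothing about density. The upstream window of Ccn1 on chr3:145650026-145650145, minus strand, GRCm38.p6, is shown with its TEAD letters in capitals, as read on the opposite strand.
Ccn1: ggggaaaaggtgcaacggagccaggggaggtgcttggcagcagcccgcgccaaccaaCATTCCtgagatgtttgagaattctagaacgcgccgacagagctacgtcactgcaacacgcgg

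Ribosomal protein genes, nearly all bright, lay lower in dense culture in both lines, with medians of -0.43 in MLO-Y4 and -0.54 in 2T3 and a difference between the lines of 0.23. Examples were Rpsa at -0.74 and -1.52, Rplp0 at -0.77 and -1.12, and Rps3 at -0.36 and -1.49, the first value in MLO-Y4 and the second in 2T3. Rpl37a was at 0.62 and -1.04. The array levels of this list spread as far within a group as between groups. In 2T3 C0 its median level, centred per gene, ran from -1.11 to 0.35, and at low density from -0.76 to 0.88. Without MLO-Y4 low replicate 1 the median in that line was 0.23, and without the 4 arrays numbered 1 it was -0.37. Between same-numbered MLO-Y4 arrays the median, dense minus sparse, was -0.57, -0.42 and -0.14, with 29, 27 and 19 of 33 genes lower.

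Growth lists had medians of opposite sign in the lines, which depended on single arrays. Of 43 proliferation and DNA replication genes, 30 lay lower in dense MLO-Y4 (median -0.29) and 28 higher in 2T3 C0 (median 0.24), and 31 had a negative difference between the lines (median -0.62). None passed. Mcm5, a helicase subunit gene detected on all 12 arrays, was at -1.60 in MLO-Y4 and 0.27 in 2T3, the nucleotide reductase gene Rrm2 at -1.07 and 0.49, and the cyclin gene Ccna2 at 0.16 and 1.28. Pold1, a DNA polymerase subunit gene, ran the other way with 1.34 between the lines. It read 40.3, 59.4 and 82.6 in C0 and 168, 111 and 164 at low density in 2T3. Of 29 translation factor and RNA processing genes, 24 had a negative difference between the lines, with medians of -0.31 in MLO-Y4, 0.27 in 2T3 and -0.59 between them. Without 2T3 C0 replicate 1 the medians in 2T3 were -0.06 for proliferation and -0.07 for translation, and without 2T3 low replicate 1 they were -0.10 and -0.13, so the opposite sign was lost. Without the 4 arrays numbered 1 the medians were negative in both lines, -0.37 in MLO-Y4 and -0.42 in 2T3 for proliferation and -0.41 and -0.32 for translation. Between the lines they were then -0.13 and -0.16, and without MLO-Y4 low replicate 1 alone -0.23 and -0.15. Between same-numbered MLO-Y4 arrays, dense minus sparse, the proliferation median was -0.22, -0.52 and -0.32 for numbers 1, 2 and 3. The translation median was 0.0094, -0.68 and -0.17.

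The circadian clock list had a median of -1.02 between the lines, with 10 of 12 genes negative. Besides Dbp it held Nr1d2, a repressor of the clock loop (0.24 in MLO-Y4 and 1.49 in 2T3), Per2 and Per3 (-0.83 and -0.45 in MLO-Y4, 0.83 and 1.01 in 2T3), Tef, a relative of Dbp (0.49 and 0.95), and Clock (-1.12 and 0.36). Cry1 and Nfil3, both repressors, were at 0.31 and 0.24 between the lines. None passed, 1 of 12 had an unadjusted p under 0.05 for the difference between the lines, against 95 of 4605 named genes, and the median lay between -1.26 and -0.62 over the alternatives, nearest to 0 without MLO-Y4 high replicate 3. The clock E-box, CACGTG, was found in 3 of 10 promoters (30.0%), those of Cry1, Per1 and Tef, against 6.86% of all genes. The list was chosen as clock genes, so this share says nothing about density.

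**Figure D4:**
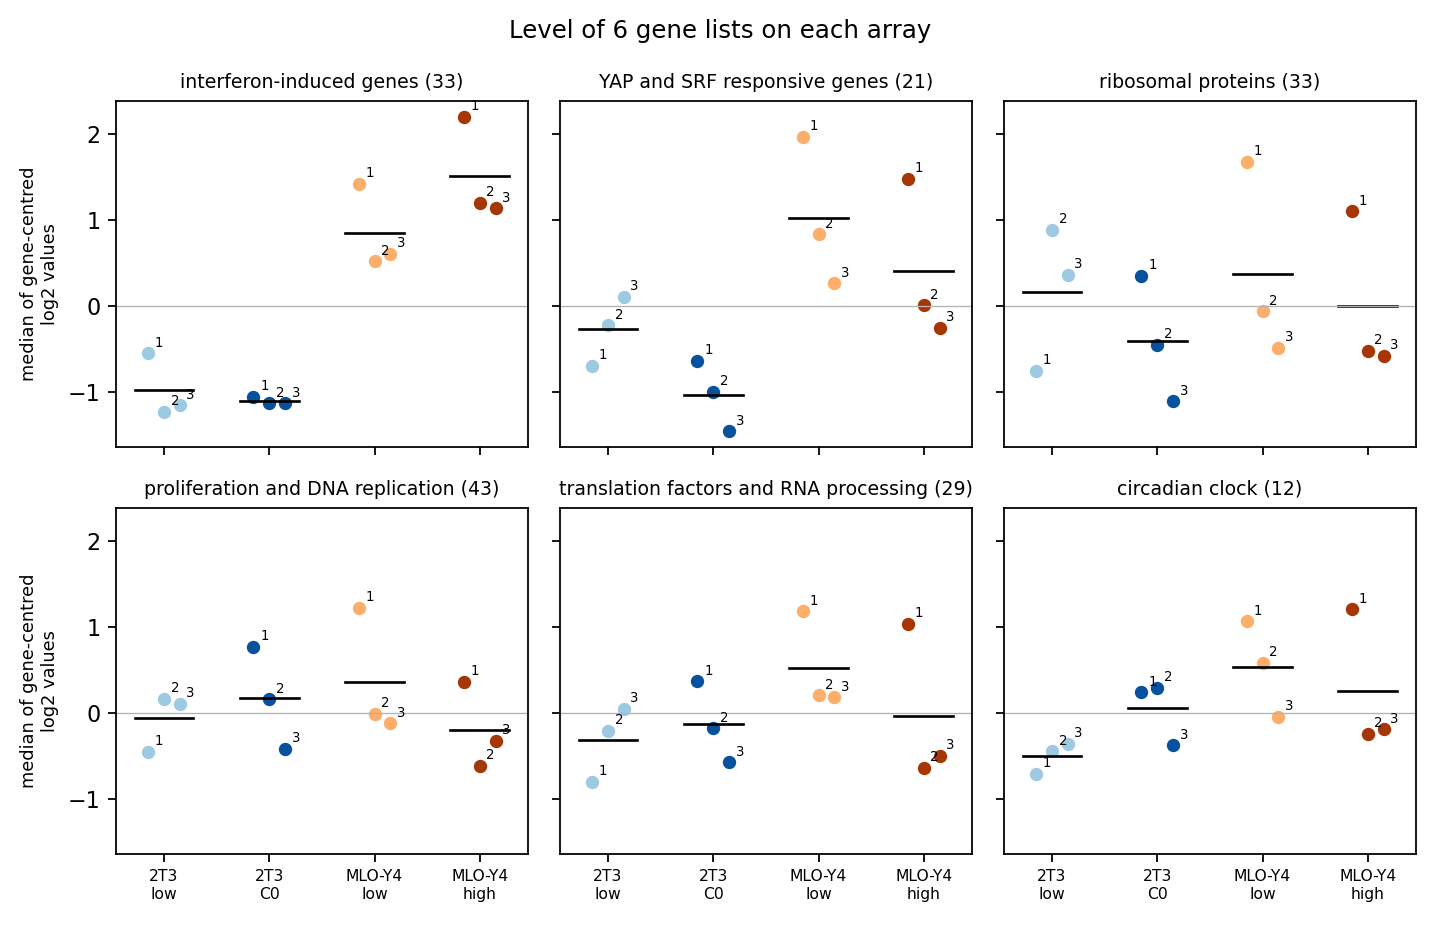
Level of 6 gene lists on each array, as the median over the list of log2 values centred per gene on the mean of the 12 arrays (vertical axis). Points are arrays, the small digits their numbers, bars group means, and the number in each title the genes measured. The interferon list is higher on each dense MLO-Y4 array than on the sparse array of the same number and flat in 2T3, and the arrays numbered 1 lie highest in every MLO-Y4 group.

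Markers of bone cells gave little. Of 20 osteoblast markers, 14 had a negative difference between the lines (median -0.26), with medians of -0.24 in MLO-Y4 and 0.20 in 2T3, and none passed. Besides Omd, Twist1, a transcription factor that holds back osteoblast maturation, was at -2.31 between the lines, and the phosphate handling genes Ank and Slc20a1 at -1.40 and -1.50. The late osteoblast gene Bglap, which encodes osteocalcin, was at 2.03 with a 95% interval from -2.55 to 6.62, and Ibsp at 1.06, Alpl at -0.40 and Sparc at -0.08. Of 11 osteocyte markers, 7 were positive (median 0.53), with medians of 0.11 in MLO-Y4 and -0.31 in 2T3. Without MLO-Y4 high replicate 1 the median between the lines was -0.20, and among spots detected on all arrays of a group it was 0.17. Between same-numbered MLO-Y4 arrays the median, dense minus sparse, was -0.097, -0.16 and 0 for numbers 1, 2 and 3. Tnfsf11, which encodes the osteoclast factor RANKL, was at 2.11 but was not detected on all arrays of any group. Pdpn was at -0.62 (95% interval -3.72 to 2.49).

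Among 40 collagens and matrix proteins, 27 had a negative difference between the lines (median -0.40), with medians of -0.31 in MLO-Y4 and 0.11 in 2T3. Col12a1, Col6a1 and Col5a1 were at -1.99, -1.26 and -1.64, and the fibulin genes Fbln1 and Fbln2 at 1.58 and 1.06. Without the 4 arrays numbered 1 the median was 0.03, and without 2T3 C0 replicate 1 alone it was -0.08. The 40 cadherin, integrin and junction genes, the machinery of contact itself, divided evenly, 20 positive and 20 negative, with a median of -0.03. The integrin gene Itgb1 was at 1.33 and read 416, 127 and 157 in dense against 125, 138 and 87.8 in sparse MLO-Y4, which overlap. Efnb1, an ephrin ligand gene, was at -2.38 and read 146, 60.6 and 41.3 in C0 and 41.4, 23.8 and 13.6 at low density in 2T3. The Wnt (37 genes), BMP and TGF-beta (42), Notch and Hedgehog (25), growth factor (47) and cytokine (52) lists had medians between the lines of -0.07, -0.09, -0.13, -0.10 and 0.04. These lie at or near the median of all named genes.

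Metabolic and housekeeping lists had no passing member either. Sterol and fatty acid synthesis genes lay at -0.25 in MLO-Y4 and 0.31 in 2T3, with 8 of 12 negative between the lines (median -0.55). Without MLO-Y4 low replicate 1 the MLO-Y4 median was 0.33 and that between the lines -0.0068, and without 2T3 C0 replicate 1 the 2T3 median was -0.10 and that between the lines -0.06. Mitochondrial respiration genes lay at -0.36 and -0.15, with 12 of 16 negative between the lines (median -0.13). Proteasome genes were at -0.22 and -0.23, heat shock and chaperone genes at -0.26 and -0.15, and glycolysis genes at -0.12 and 0.02. Between the lines the glycolysis median was -0.22 and ran from -0.67 without 2T3 C0 replicate 3 to 0.20 without 2T3 C0 replicate 1. Of 47 genes of oxidative stress and detoxification, 31 were negative between the lines (median -0.26), and the median ran from -0.64 without MLO-Y4 high replicate 1 to -0.0093 without MLO-Y4 high replicate 2. Among 27 growth arrest and p53 target genes 16 were negative (median -0.13). The 44 actin and cell process genes, which shape the extensions of osteocytes, divided 23 to 21, with a median of 0.06, as did the 35 matrix proteases and inhibitors, 18 to 17, with a median of 0.01.

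Immediate early genes also divided, with 13 of 24 positive. Dusp1, a phosphatase gene of stress signalling detected on all 12 arrays, was at 2.14 and read 989, 340 and 78.7 in dense and 236, 300 and 118 in sparse MLO-Y4. Id2, an inhibitor of differentiation, was at -3.40 and read 54.5, 36.3 and 18.8 in C0 against 9.40, 4.54 and the floor at low density in 2T3. Nr4a1, an orphan nuclear receptor gene, was at 0.35 in MLO-Y4 and 1.85 in 2T3.

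Markers of other cell types were also examined. Of 11 endothelial markers, 8 had a positive difference between the lines (median 0.61), of 17 macrophage and osteoclast markers 13 (median 0.35) and of 14 muscle markers 11 (median 0.49). Over all named genes 2216 of 4605 were positive. Only 5, 8 and 7 members of these lists were detected on all arrays of at least 1 group. With the floor at the 40th percentile the medians were 0.084, 0.077 and 0.42. The median level of the endothelial list, centred per gene, ran from -0.52 to 0.08 in C0, -0.26 to 0.62 in low 2T3, -0.42 to 0.67 in sparse and -0.39 to 0.48 in dense MLO-Y4. That of the macrophage list ran from -0.26 to -0.23, -0.16 to 0.19, -0.23 to -0.16 and -0.34 to 0.08. Some members were bright. Eng, the gene of the TGF-beta co-receptor endoglin, had geometric means of 842 in sparse and 1014 in dense MLO-Y4, and Tyrobp, a signalling adaptor gene of myeloid cells, of 130 in low 2T3. Tnnt2, a troponin gene, ranged over the groups from 84.3 to 203. The defining genes Pecam1 and Cdh5 of endothelium, and Ptprc and Csf1r of blood cells and macrophages, were not detected on all arrays of any group. The part of such cells in the interferon and chemokine values was not tested. In bulk RNA, fewer cells of a type and less RNA per cell cannot be told apart.

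**Figure D5:**
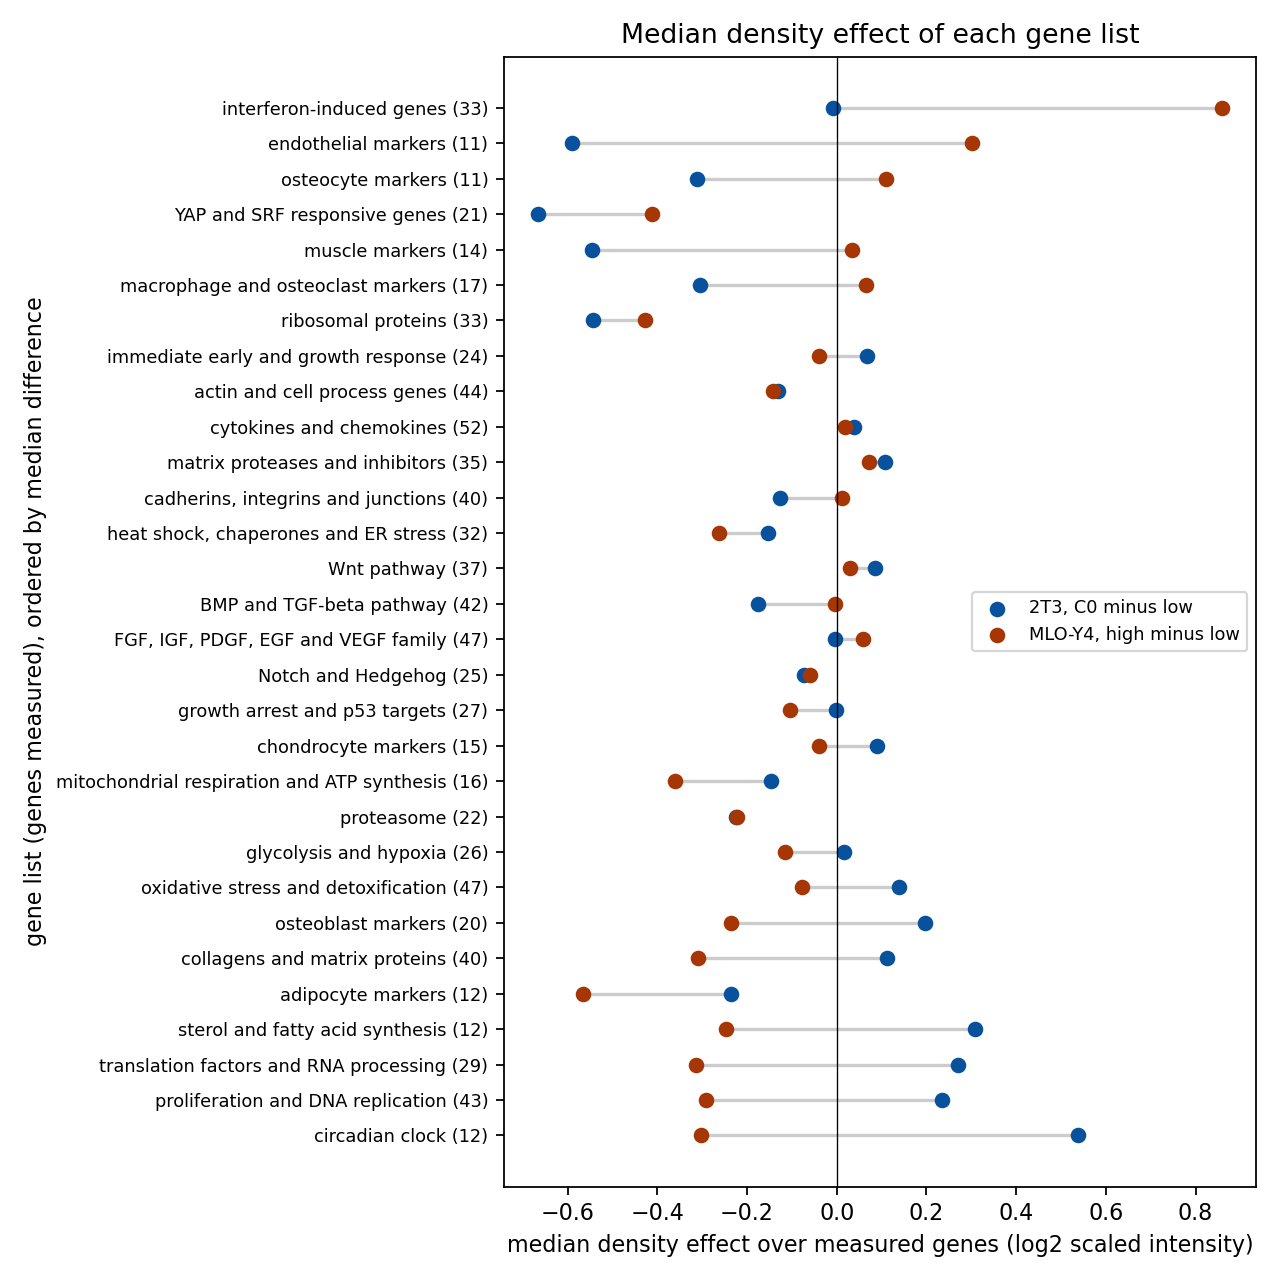
Median density difference over the measured genes of each of 30 lists (horizontal axis, log2 scaled intensity), blue for 2T3 (C0 minus low) and red for MLO-Y4 (high minus low), with the number of genes measured in parentheses. Lists are ordered by the median difference between the lines, from circadian clock at -1.02 to interferon-induced genes at 0.92. The YAP and SRF and the ribosomal protein lists lie left of 0 in both lines.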

How the data were processed

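The deposited values are background-subtracted spot intensities, 1 channel for each of 12 arrays, whole numbers from -23 to 53055. That the authors subtracted a background is read from the negative values. Of the image software and any rejected spots nothing is given in the sources used here. Spots were named through a platform annotation table, and 4633 of 5030 had 1 symbol, 5 several and 392 none. For 4624 spots the symbol was brought up to date by its Entrez identifier, and 4605 distinct genes remained.

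Arrays were scaled to equal medians (18.2 units), floored at the 25th percentile of scaled values (3.96 units) and put on the log2 scale. Values at the floor have no order. Where no array of a group detected a spot, the brighter group is given as at least N-fold over the mean limit. limma 3.58.1 in R 4.3.3 estimated 4 group means over 12 arrays, with 8 residual degrees of freedom, and tested 3 contrasts with two-sided moderated tests. P-values were adjusted by Benjamini-Hochberg over 5030 spots, with a threshold of 0.05. SE and 95% intervals are those of this fit and carry no adjustment, and the number of arrays limits the precision. The fit was run on simulated data with very large added effects and independent noise between arrays, which does not bear on its precision here.

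Same-numbered arrays deviated together in MLO-Y4 (correlations 0.627, 0.480 and 0.514 across spots) and not in 2T3 (0.067, 0.099 and 0.113). The labels do not say what a number marks, so the pairing in MLO-Y4 comes from the data alone.

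Named genes have 1 symbol and are detected on all arrays of at least 1 group. They are the 10 smallest p-values in each direction of the difference between the lines, the 5 for each combination of signs of the density differences, up to 5 for each line and direction with a value within 0.5 of 0 in the other line, and the 3 smallest p-values of each list, beside Pdpn, Phex, Alpl, Ibsp and Bglap. Other list members are given as examples chosen after their values were seen. The comparison and the lists were chosen with earlier results of these data known. Alternatives were other scalings, floors and filters, array weights, replicate blocks and leaving out arrays. Promoters are RefSeq's on GRCm38.p6.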

Additional observations from a re-analysis of the deposited data

Results flagged for a closer look

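In 3 named genes every dense array lay on one side of every sparse array in MLO-Y4 and on the opposite side in 2T3. The difference between the lines, MLO-Y4 minus 2T3 on the log2 scale, was -3.41 for the amino acid transporter gene Slc7a2, -3.40 for the transcription factor gene Mef2a and -3.14 for Gmcl1. The difference itself was tested with limma and passed no adjusted threshold in any of the 3 genes (adjusted p = 1). In MLO-Y4 Gmcl1 was above the detection limit on 0 of 6 arrays and Slc7a2 on 1 of 6, so their order there compares values not above background. Mef2a was above it on all 6. The 3 genes were named for small p-values on these same arrays, so the lack of overlap is not separate support. Such opposed groups without overlap were found for 6 of 5030 spots, 0.119%. Another 6 spots had groups apart in both lines in the same direction, so opposed spots were no more frequent than shared ones.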

How the results depend on the processing

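No spot passed for the difference between the lines or for MLO-Y4 under any of the alternatives run, and 2 spots passed for 2T3 with a floor at the 40th percentile and 2 with array weights. A floor at the 15th percentile was not run because that percentile was 0. At unadjusted p under 0.05, the counts for the difference between the lines, MLO-Y4 and 2T3 (104, 116 and 141) were 60, 60 and 77 among spots detected on all arrays of a group, 180, 178 and 267 with a replicate block by line and number, 165, 179 and 241 with the replicate block in MLO-Y4 alone, 307, 203 and 565 with array weights, and 279, 251 and 374 without the 4 arrays numbered 1. With the number as a replicate block across lines the count for the difference was 150. Detected-spot scaling gave 76 in MLO-Y4 and 219 in 2T3, quantile normalization 266 in 2T3, and each line fitted alone 216 in 2T3. With single arrays left out these counts ran from 82 to 175, 96 to 177 and 101 to 177. The blocks gave no call at adjusted p 0.05. The count called in both lines with the same sign (1) was 7 with quantile normalization, 2 with detected-spot scaling or the 40th-percentile floor, 3 with cyclic loess, 0 with the filter on the limit, 13, 6 and 5 with the replicate blocks by line and number, across lines and in MLO-Y4, 15 with array weights, 26 without arrays numbered 1 and 0 to 6 without single arrays. The count with opposite signs (2) was 1 with detected-spot scaling, cyclic loess or the filter on the limit, 7, 4 and 5 with the same blocks, 14 with array weights, 17 without arrays numbered 1 and 1 to 7 without single arrays.

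List medians of the difference between the lines moved by more than the spread between arrays in 28 of 660 cases. Without the 4 arrays numbered 1 they were 0.36 for cadherins, integrins and junctions, -0.59 for the Wnt pathway, 0.80 for mitochondrial respiration, 0.64 for the proteasome, -0.071 for muscle and 0.038 for macrophage markers. Array weights gave 0.65 for mitochondrial respiration, 0.56 for heat shock and chaperones and 0.19 for macrophage markers. The filter on the limit gave -0.40 for Wnt, -0.77 for chondrocyte and -1.29 for adipocyte markers. The 40th-percentile floor gave 0.084 for endothelial and 0.077 for macrophage markers, and detected-spot scaling 0.67 for the latter. Without single arrays the medians ran from -0.27 to 0.15 (Notch and Hedgehog), -0.38 to 0.10 (Wnt), -0.26 to 0.15 (BMP and TGF-beta), -0.47 to 0.27 (cytokines), 0.40 to 1.04 (interferon), -0.41 to 0.073 (chondrocyte), 0.23 to 1.11 (muscle) and 0.15 to 0.83 (macrophage). Of 2970 values for 135 named results, 22 in 13 results turned sign. Without arrays numbered 1 the difference was 0.043 for Mmp16, 0.44 for Idh3g, 0.23 for Sox5, 0.49 for Dgat1, 0.98 for Fabp5, -0.52 for Tnnt2, -0.0097 for Tnnc2, -0.077 for Eng and -0.098 for Phex. With array weights it was 0.25 for Fabp5, -0.0049 for Tnnt2, -0.056 for Tnnc2 and -0.091 for Eng. Without single arrays it ran from -0.20 to 1.27 for Cdkn1a, -1.60 to 0.38 for Col9a1, -0.059 to 1.54 for Tnnc2, -1.49 to 0.40 for Pdpn, -0.21 to 1.30 for Phex and -1.39 to 0.43 for Alpl. The cause of these moves was not tested. Detection limits most low genes, since 2988 of 5030 spots were above it on every array of a group.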
